A study of Mus musculus with 6 samples.

Results

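10 genes of the heart muscle cell were followed through RNA sequencing of lung epithelium from mouse embryos: Myh6, Myh7, Nppa, Csrp3, Tnnt2, Tnni3, Actc1, Myl7, Ryr2 and Ky. Their rows were found by Entrez identifier, 10 of the 27179 gene rows of the count table, and they were selected from the measured values of these same libraries, so their differences between the genotypes are given as a description. Of the 10, 8 passed the filter on low counts and 2, Nppa and Csrp3, did not. The question was whether a heart muscle gene differed in every library of a genotype or in 1 library.

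All samples were lung cells sorted by flow cytometry for EpCAM, a surface protein of epithelia, at E16.5 (embryonic day). Control samples had the genotype Shh-Cre;Grhl2f/+ (replicates 1, 3 and 7), and Grhl2_cKO samples had Shh-Cre;Grhl2f/- (replicates 1, 5 and 10), where f is a floxed allele of Grhl2, a transcription factor of epithelia. Both genotypes carried Shh-Cre, which acts where the Sonic hedgehog gene is active and so in the embryonic lung epithelium, and a control cell in which Cre acted keeps 1 Grhl2 allele. Control replicate 7 and Grhl2_cKO replicate 1 were female and the other 4 samples male, and it is not stated whether a sample was 1 embryo or a pool. Spread between replicates may therefore be technical in part.

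Heart muscle contracts by thick filaments of myosin pulling on thin filaments of actin, and the troponin complex on the thin filament lets this happen when calcium is released inside the cell. The atria and the ventricles use partly different versions of these proteins. In mice, heart muscle cells of an atrial kind also form a sleeve around the pulmonary veins, inside the lung itself, and they are not epithelial cells.

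Total counts were 13472216 to 17228762 per library, and a gene at 0 in a library may have had up to 3 counts, which was 0.174 to 0.223 CPM. CPM are counts divided by the library size, scaled by TMM, and brought to a common size, and limits and intervals cover counting error only. Where values of 3 libraries are listed, they are in the order of the replicates, 1, 3 and 7 for the controls and 1, 5 and 10 for Grhl2_cKO. Grhl2 itself measured 149, 147.8 and 145.9 CPM in the controls against 105.3, 109.1 and 115.2 CPM in Grhl2_cKO (log2 fold change -0.43 ± 0.05 SE, n = 3 per group, edgeR adjusted p = 0.00204). Epcam fell in Grhl2_cKO as well, with a log2 fold change of -0.56 ± 0.08 (SE, n = 3 per group, edgeR adjusted p = 0.00527), and 6 lung epithelium markers summed to 14610 to 17410 CPM in the 6 libraries. The fit over 14842 genes called 180 higher in Grhl2_cKO (1.21%) and 353 lower (2.38%) at an adjusted p under 0.05.

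Myh6 and Myh7, which encode the alpha and beta heavy chains of cardiac myosin, lie next to each other on chromosome 14 of the mm10 build. Each holds a microRNA gene of its own, and the pair of mature sequences below is shown because these paralogs carry microRNAs that are paralogs too. The sequences are from RefSeq (GRCm38.p6) and run 5′ to 3′, with the seed, bases 2 to 8, in capitals.

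mmu-miR-208a-3p, within Myh6, chr14:54949072-54949093, minus strand: aUAAGACGagcaaaaagcuugu

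mmu-miR-208b-3p, within Myh7, chr14:54975710-54975731, minus strand: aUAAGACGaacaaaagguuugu

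The seeds are the same, and 3 of the 22 positions differ between the sequences. Libraries of polyadenylated RNA do not measure mature microRNAs, so the table gives no level for them. The precursor rows held 2 counts in Grhl2_cKO replicate 1 for Mir208a, 0 in the other 5 libraries, and 0 in all 6 for Mir208b.

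The 250 bases before a RefSeq transcription start are shown for 4 genes, because 3 of them stood high in a single library (Nppa, Myl7 and Tnnt2) and 1 in all Grhl2_cKO libraries (Myh7). They are RefSeq sequence of GRCm38.p6, written 5′ to 3′ along the gene's own strand. Capitals mark matches, on either strand, to motifs of factors known from heart muscle: GATAA for GATA factors, TNAAGTG for NKX2-5, CATTCC for TEAD factors, and the SRF motif known as the CArG box.

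Nppa, chr4:148000472-148000721, plus strand: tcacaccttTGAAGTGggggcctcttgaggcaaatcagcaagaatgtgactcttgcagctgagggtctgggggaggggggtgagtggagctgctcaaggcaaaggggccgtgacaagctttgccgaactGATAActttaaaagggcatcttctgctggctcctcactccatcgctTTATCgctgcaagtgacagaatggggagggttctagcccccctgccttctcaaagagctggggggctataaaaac

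Myl7, chr11:5898783-5899032, minus strand: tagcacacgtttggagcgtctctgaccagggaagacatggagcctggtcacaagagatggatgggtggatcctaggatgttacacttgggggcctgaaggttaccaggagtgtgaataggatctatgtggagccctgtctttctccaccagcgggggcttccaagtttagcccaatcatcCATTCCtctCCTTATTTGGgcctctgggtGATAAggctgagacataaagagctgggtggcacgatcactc

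Tnnt2, chr1:135836084-135836333, plus strand: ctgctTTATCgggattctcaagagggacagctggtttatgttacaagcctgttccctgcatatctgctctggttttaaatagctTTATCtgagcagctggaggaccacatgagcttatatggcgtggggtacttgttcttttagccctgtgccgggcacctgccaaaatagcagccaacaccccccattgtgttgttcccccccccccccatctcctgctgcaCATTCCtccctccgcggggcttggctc

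Myh7, chr14:54994627-54994876, minus strand: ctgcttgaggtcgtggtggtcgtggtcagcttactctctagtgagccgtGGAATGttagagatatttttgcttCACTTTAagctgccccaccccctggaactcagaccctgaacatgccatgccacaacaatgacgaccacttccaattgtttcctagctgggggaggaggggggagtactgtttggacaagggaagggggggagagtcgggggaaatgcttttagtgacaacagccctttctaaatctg

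Nppa held GATAA 117 to 121 bases before its start, its reverse complement 71 to 75 bases before it, and an NKX2-5 match 235 to 241 bases before it. Myl7 held TEAD, CArG and GATA matches within 70 bases of its start, at 65 to 70, 52 to 61 and 37 to 41 bases. Tnnt2 had a TEAD match 22 to 27 bases before the start and GATA matches 162 to 166 and 241 to 245 bases before it. The start used for Tnnt2 follows base 135836333, inside the gene coordinates given for it here, which begin at 135836315. In Myh7 an NKX2-5 match lay 171 to 177 bases and a TEAD match 196 to 201 bases before the start used here. No 2 of these matches overlapped. RefSeq also gives another window for Tnnt2 (chr1:135836739-135836988) and for Myh7 (chr14:54994550-54994799), and neither held a match to these motifs.

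Over the 13 windows that RefSeq gives for the 10 genes, GATAA was found in 3 genes, TNAAGTG in 4, CATTCC in 4 and the CArG box in 2 (Actc1 and Myl7). Of all 32851 windows of this length, 22.6%, 10.1%, 12.6% and 1.47% held these motifs in the same order. The counts are per gene and the shares per window, so they are not directly comparable. The Ky window, 1 of those with TNAAGTG, lay inside the coordinates of the gene, with all 250 bases annotated as exon. The MEF2 motif, present in 2.92% of windows, and AACCGGTT, a GRHL2 motif present in 0.116%, matched no window of the 10 genes. Windows of this length leave out more distant enhancers, and a match is a match of letters only.

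Myh6 (chromosome 14, 54941921 to 54968017) stood at 14.4, 9.19 and 13.4 CPM in the controls and at 76.4, 11.0 and 9.29 CPM in Grhl2_cKO. Only Grhl2_cKO replicate 1 was high, while replicates 5 and 10 of the same genotype lay within the range of the controls. Its 1271 counts were 5.30 times the level of the next library, Control replicate 1 (95% interval 4.55 to 6.20). The log2 fold change between genotypes was 1.40 ± 0.68 (SE, n = 3 per group), and without Grhl2_cKO replicate 1 it was -0.27.

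Myh7 (chromosome 14, 54970684 to 54994626) had another pattern. Its level was 146.5, 138.4 and 139.1 CPM in the controls and 200.5, 191.5 and 195.8 CPM in Grhl2_cKO. The groups did not overlap, and Grhl2_cKO replicate 1 stood at 1.02 times the next library (95% interval 0.975 to 1.07). The group means were 141.3 ± 4.49 and 195.9 ± 4.51 CPM (SD, n = 3 each), 1.39-fold apart, with a log2 fold change of 0.47 ± 0.05 (SE) that became 0.45 without Grhl2_cKO replicate 1.

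The ratio of Myh7 to Myh6 counts was 10.2, 15.1 and 10.4 in the controls and 2.63, 17.3 and 21.1 in Grhl2_cKO. It was lowest in the library with high Myh6. Both genes are of near-identical sequence over long stretches, and how reads that fit both were counted is not given, so the split of counts between them is uncertain. The Mhrt gene, which overlaps Myh7 and makes a noncoding RNA from the opposite strand, held 0.06 to 0.12 CPM. Whether strand was used in counting is not given either. Gm31251 (54975264 to 55005006), a noncoding RNA gene that also overlaps Myh7, had no row in the count table, and neither had Gm52092, which overlaps Myh6. Their levels are not known, and their part in the counts of Myh7 and Myh6 was not tested.

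Myl7 (chromosome 11, 5896637 to 5898782), the atrial regulatory light chain of myosin, stood at 6.20, 2.62 and 4.06 CPM in the controls and at 30.3, 2.69 and 2.31 CPM in Grhl2_cKO. Again a single library was high, at 4.89 times the next (95% interval 3.87 to 6.24). Grhl2_cKO replicates 5 and 10 had a mean of 2.50 CPM, 0.583 times the control mean. Its log2 fold change moved from 1.48 ± 0.85 (SE, n = 3 per group) to -0.76 when Grhl2_cKO replicate 1 was left out.

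The thin filament genes repeated this pattern. Actc1 (chromosome 2, 114047282 to 114052875), the actin of heart muscle, had 11.7, 4.81 and 3.74 CPM in the controls and 51.3, 6.16 and 3.90 CPM in Grhl2_cKO, so that replicate 1 held 4.38 times the next library (95% interval 3.69 to 5.22). Tnnt2 (chromosome 1, 135836315 to 135852268), the troponin that ties the complex to tropomyosin, had 4.03, 0.97 and 2.19 CPM in the controls and 22.4, 2.76 and 1.36 CPM in Grhl2_cKO, and the ratio to the next library was 5.54 (95% interval 4.16 to 7.52). In both genes the other Grhl2_cKO libraries fell inside the control range. The log2 fold changes were 1.63 ± 0.84 for Actc1 and 1.92 ± 0.90 for Tnnt2 (SE, n = 3 per group), and -0.41 and -0.20 without Grhl2_cKO replicate 1.

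Tnni3 (chromosome 7, 4518305 to 4522718), the inhibitory troponin of the mature heart, differed less. It stood at 3.29, 2.43 and 2.64 CPM in the controls and at 5.65, 1.86 and 1.60 CPM in Grhl2_cKO. Grhl2_cKO replicate 1 was the highest library at 1.72 times the next (95% interval 1.19 to 2.52), and replicates 5 and 10 were the 2 lowest. The log2 fold change of 0.13 ± 0.43 (SE, n = 3 per group) was -0.01 with sex as a covariate, -0.09 by limma-voom and -0.68 without Grhl2_cKO replicate 1. Tnni1, the troponin of the embryonic heart and of slow skeletal muscle, was at 7.63 CPM in Grhl2_cKO replicate 1 and at 0.59 to 2.12 CPM elsewhere.

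Nppa (chromosome 4, 148000722 to 148002074) encodes the atrial natriuretic peptide, a hormone that atrial muscle stores and releases. It gave 0, 3 and 1 counts in the controls and 251, 7 and 1 counts in Grhl2_cKO. The 251 counts were 15.1 CPM, 33.6 times the level of Grhl2_cKO replicate 5 (95% interval 16.1 to 84.4), and the count of 0 in Control replicate 1 allows up to 0.223 CPM. Outside Grhl2_cKO replicate 1, Nppa was at 0.45 CPM or less. Its relative Nppb, also a natriuretic peptide and singled out after its values were seen, had 0.36 CPM in Grhl2_cKO replicate 1, 0.06 CPM in Control replicate 3 and 0 in the other 4 libraries.

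Csrp3 (chromosome 7, 48830398 to 48848051), a LIM domain protein of the Z disc, gave 6, 2 and 4 counts in the controls and 83, 5 and 1 counts in Grhl2_cKO. This put replicate 1 at 4.99 CPM, 11.1 times the next library (95% interval 4.9 to 31.2). Ryr2 (chromosome 13, 11553099 to 12106945), the channel that releases calcium from the sarcoplasmic reticulum, did not stand apart in this way, with 12.3, 10.7 and 11.0 CPM in the controls and 14.6, 12.3 and 11.1 CPM in Grhl2_cKO. Grhl2_cKO replicate 1 was the highest library for Ryr2 too, but at 1.18 times the next, with a 95% interval of 0.968 to 1.45 that includes equal levels.

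Ky (chromosome 9, 102505755 to 102546247) encodes a protein of muscle filaments, known from the kyphoscoliosis mouse, that binds filamin C. Its level was 5.15, 5.29 and 5.03 CPM in the controls and 12.8, 11.7 and 9.64 CPM in Grhl2_cKO. All 3 Grhl2_cKO libraries were above all 3 controls, and replicate 1 was at 1.09 times replicate 5 (95% interval 0.89 to 1.34). The means were 5.16 ± 0.132 and 11.4 ± 1.61 CPM (SD, n = 3 each), 2.21-fold apart. The log2 fold change was 1.14 ± 0.14 (SE) and 1.05 without Grhl2_cKO replicate 1.

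**Figure D1:**
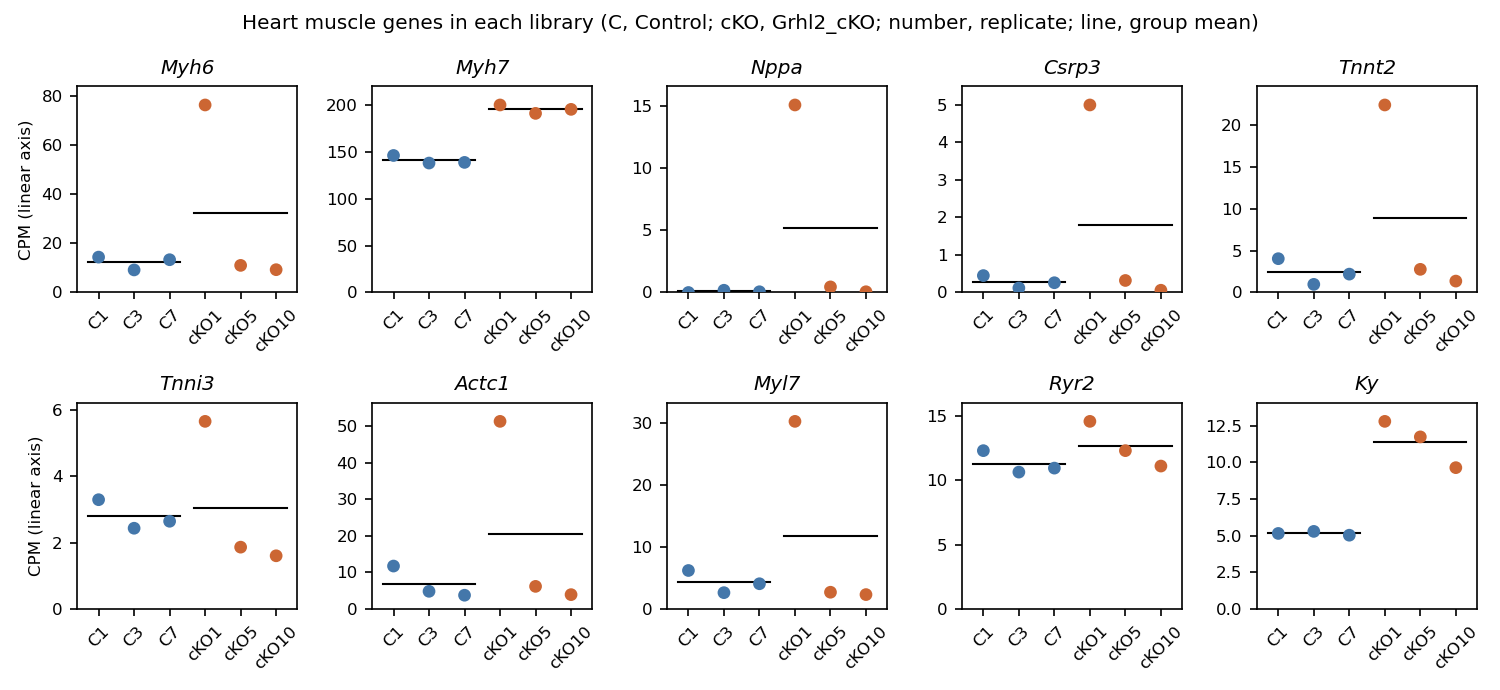
Level of each of the 10 genes in each library, in CPM on a linear axis of its own, with the mean of each genotype as a line (n = 3). Myh7 and Ky are high in all 3 Grhl2_cKO libraries, while in 6 genes (Myh6, Nppa, Csrp3, Tnnt2, Actc1 and Myl7) the mean of Grhl2_cKO is set by replicate 1.

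All 10 genes had their highest level in Grhl2_cKO replicate 1. Of the 10, 6 stood at 2 or more times the highest of the other 5 libraries there (Myh6, Nppa, Csrp3, Tnnt2, Actc1 and Myl7), and 4 of these were among the 8 genes tested. Of all 14842 genes tested, 37 (0.249%) met this rule in Grhl2_cKO replicate 1, 19 (0.128%) in Control replicate 1, 1 (0.00674%) in Control replicate 3, 2 (0.0135%) in Control replicate 7, 0 (0%) in Grhl2_cKO replicate 5 and 2 (0.0135%) in Grhl2_cKO replicate 10. The fit called 2 of the 8 tested genes higher in Grhl2_cKO, Myh7 and Ky, and 0 lower, and the same 2 had every Grhl2_cKO library above every control, which 1212 of all tested genes (8.17%) had. Because the genes were selected on this contrast, nothing is read from these counts. Myh7 and Ky were called under each of the 14 alternative settings, and the other 6 tested genes under none of them.

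Summed without Myh7 and Ky, the 8 remaining genes reached 52.4, 31.0 and 37.3 CPM in the controls and 220.6, 37.6 and 29.7 CPM in Grhl2_cKO. Grhl2_cKO replicate 1 was at 4.21 times Control replicate 1, the next library, and at 5.87 times the next one if Control replicate 1 was left out. The other female library, Control replicate 7, was at 37.3 CPM, within the range of the male libraries. Grhl2_cKO replicate 1 is the only female library of its genotype, so sex and library cannot be told apart there. With sex as a covariate, the log2 fold changes were 0.85 for Myh6, 1.29 for Tnnt2, 0.89 for Actc1 and 0.76 for Myl7. In such bulk samples, more cells of a type and more of its RNA per cell cannot be told apart.

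**Figure D2:**
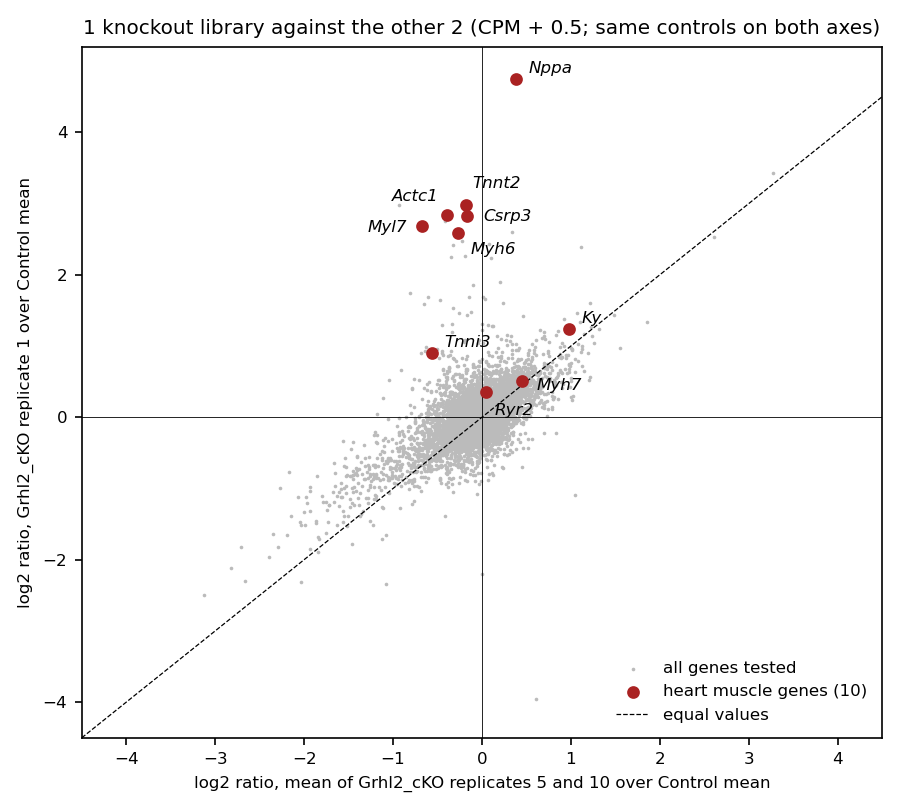
Log2 ratio to the Control mean for Grhl2_cKO replicate 1 (vertical) and for the mean of Grhl2_cKO replicates 5 and 10 (horizontal), on CPM + 0.5. Grey points are the 14842 genes tested, red points the 10 heart muscle genes, and both axes share the Control libraries. Myh7 and Ky lie near the line of equal values, and Nppa, Tnnt2, Csrp3, Actc1, Myl7 and Myh6 lie far above it.

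Per kilobase of transcript, where genes can be compared with each other, the order also changed. The median over the 5 other libraries was 24.2 CPM per kilobase for Myh7, 4.57 for Myl7, 3.46 for Actc1, 2.95 for Tnni3, 1.84 for Tnnt2, 1.82 for Myh6, 0.971 for Ky, 0.662 for Ryr2, 0.265 for Csrp3 and 0.0778 for Nppa. Myh7 thus exceeded each other gene of the set in those libraries, whereas the ranges of Myl7, Actc1 and Tnni3 overlapped one another. In Grhl2_cKO replicate 1, Myl7 came first with 51.3 CPM per kilobase and Actc1 second with 36.9, ahead of Myh7 with 33.1. Nppa, which had the lowest median over the other 5 libraries, was at 18.2 CPM per kilobase there, close to Tnnt2 with 18.7 and above Myh6 with 12.6.

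**Figure D3:**
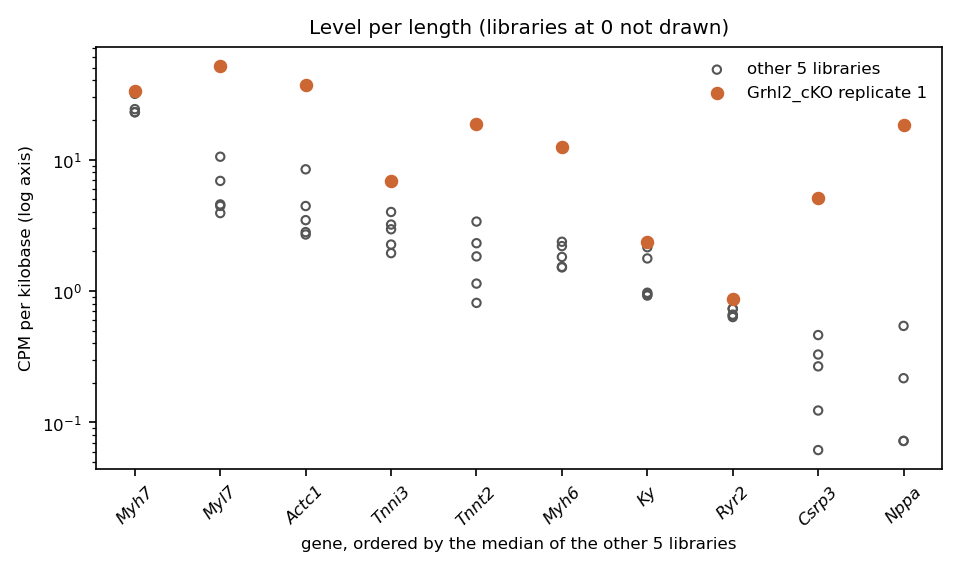
CPM per kilobase of transcript on a log axis for each gene, with Grhl2_cKO replicate 1 as filled points and the 5 other libraries as open points (a library at 0 is not drawn). Myh7 leads in the 5 other libraries with a median of 24.2, and Myl7 leads in Grhl2_cKO replicate 1 with 51.3.

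Beyond the 10 genes, 5 lists of heart genes held 77 further genes, 45 of them tested: thick filament, thin filament and Z disc, calcium handling and excitation, hormones and muscle energy, and transcription factors. The edgeR fit called 0 of the 45 in either direction, with 8 at an unadjusted p under 0.05, while DESeq2 called 1, Tpm1, and limma-voom 0. Over all genes tested, 1969 of 14842 had an unadjusted p under 0.05. Their median log2 fold change was 0.26 and fell to -0.03 without Grhl2_cKO replicate 1, against -0.0041 over all genes tested. In Grhl2_cKO replicate 1, 14 of the 45 (31.1%) stood at 2 or more times the highest other library, and in each of the other 5 libraries 0 did. Counting untested genes too, 45 of the 77 had their highest level in Grhl2_cKO replicate 1, and between 3 and 10 in each other library.

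Of the 5 tested thick filament genes, 3 met this rule. Mybpc3, the cardiac myosin-binding protein C, stood at 7.93 CPM in Grhl2_cKO replicate 1 and at 0.24 to 1.12 CPM in the others, and Ttn, the giant spring of the sarcomere, at 12.98 CPM and 0.83 to 2.63 CPM. The summed thick filament list was at 60.0 CPM, 3.56 times the next library. Myom1, which crosslinks myosin at the M band, was at 9.43 CPM and 4.87 to 6.57 CPM (log2 fold change 0.36 ± 0.23 SE, n = 3 per group, edgeR adjusted p = 0.634).

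Among thin filament and Z disc genes, Actn2, the alpha-actinin of the Z disc, stood at 6.79 CPM in Grhl2_cKO replicate 1. In replicates 5 and 10 it was at 0.96 and 1.06 CPM, against 0.52 to 0.84 CPM in Control, so the groups did not overlap (edgeR adjusted p = 0.231). Of all tested genes, 8.17% had every Grhl2_cKO library above every control. In Grhl2_cKO replicate 1, Tnnc1, the calcium-binding troponin, was at 7.63 CPM against 0.84 to 1.22 CPM elsewhere. Ankrd1, a stress-responsive protein of muscle, was at 10.45 against 0.59 to 1.05 CPM. Of the 13 tested genes of this list, 6 stood at 2 or more times the highest other library there. The others did not, among them Des, Nebl and Smpx at 0.909, 0.994 and 1.25 times it. Tpm1, a tropomyosin also made outside muscle, was at 571.6 to 609.4 CPM in Control and 673.8 to 686.5 CPM in Grhl2_cKO, with a log2 fold change of 0.21 ± 0.07 (SE, n = 3 per group, edgeR adjusted p = 0.142, DESeq2 adjusted p = 0.0106). The list's sum was therefore only 1.08 times the next library.

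Calcium handling genes also differed from one another. Casq2, the calcium store protein of the cardiac reticulum, was at 4.45 CPM in Grhl2_cKO replicate 1 and at no more than 0.52 CPM elsewhere, and Pln, which restrains the calcium pump, at 1.38 and no more than 0.37 CPM. Both were singled out after their values were seen. Neither was among the 11 tested genes of this list, of which 1 stood at 2 or more times the highest other library there. Atp2a2, the pump itself and found in most cells, was at 376.6 CPM and 345.0 to 397.4 CPM (log2 fold change 0.13 ± 0.06 SE, n = 3 per group, edgeR adjusted p = 0.416), and Cacna1c, a calcium channel of the cell surface, at 37.5 and 30.4 to 38.4 CPM (0.22 ± 0.08 SE, edgeR adjusted p = 0.216). Of the 5 tested hormone and energy genes, 1 stood at 2 or more times the highest other library in Grhl2_cKO replicate 1. This was Hspb7, a small heat shock protein of heart and skeletal muscle, at 7.27 CPM against 0.35 to 1.42 CPM. Eno3, an enzyme gene of the same list, was at 25.7 CPM there, within the 18.7 to 28.5 CPM of the other libraries.

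On the list of cardiac transcription factors 11 genes were tested, and it also holds genes of other kinds, such as Smyd1 and Popdc2. Of the 11, 3 stood at 2 or more times the highest other library in Grhl2_cKO replicate 1 (Tbx20, Gata4 and Smyd1). The median log2 ratio of the list there was 0.09. Tbx20 stood at 7.21 CPM in Grhl2_cKO replicate 1 and at 0.59 to 1.35 CPM elsewhere, 5.32 times the next library (95% interval 3.33 to 8.91). Gata4, singled out after its values were seen, was at 4.09 and 0.53 to 1.27 CPM. Smyd1, also singled out in this way, was at 4.21, 1.15 and 1.48 CPM in Grhl2_cKO and at 0.97 to 1.12 CPM in Control. Gata6, which lung epithelium also uses, was at 126.7 to 147.8 CPM in all 6 libraries. Tbx5 and Mef2c, at 16.2 and 10.2 CPM in Grhl2_cKO replicate 1, lay within the 14.6 to 17.0 and 7.93 to 12.9 CPM of the others. The sum over this list, 364.5 CPM, lay within the range of the others, 341.9 to 395.1 CPM.

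By the ratio of Grhl2_cKO replicate 1 to the highest other library, 12753 tested genes were ranked, those averaging at least 20 counts per library. Counts in the ranked library itself helped genes to pass this limit: Ankrd1 held 174 there and 10 to 14 in the others. Of the first 15, 14 were among the 10 genes or the 5 heart lists. The ratios ran from 10.0 for Ankrd1, 7.08 for Mybpc3 and 6.60 for Myl4 down to 3.60 for Tnni1, and the remaining gene of the 15 was Emilin2, an extracellular matrix protein, at 3.77. Of the 37 genes at 2 or more times the highest other library, 18 were heart genes by these lists and 19 were not. The 10 genes and the lists were chosen with earlier results of these data known, so nothing is read from these shares.

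**Figure D4:**
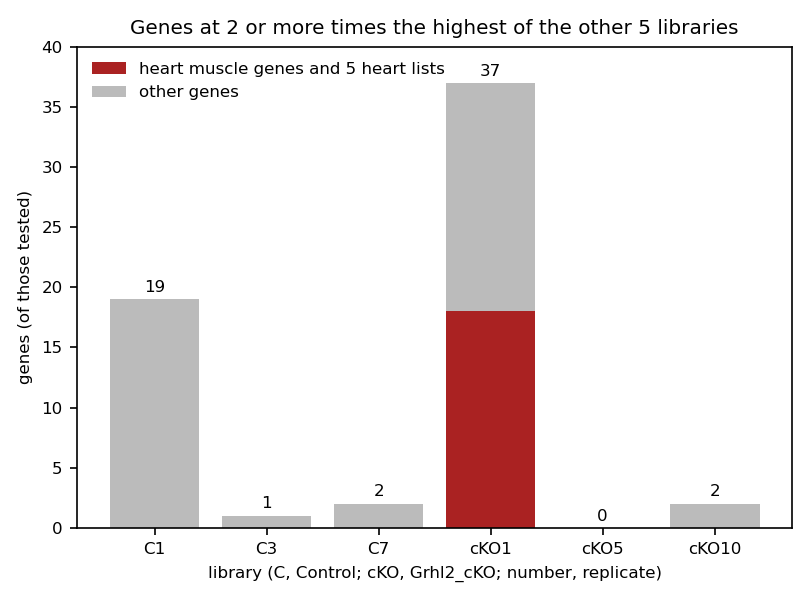
Number of genes, of the 14842 tested, at 2 or more times the highest of the other 5 libraries, for each library. The red part is the heart muscle genes and the 5 heart lists: 18 of 37 in Grhl2_cKO replicate 1 and 0 of 19 in Control replicate 1.

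Of the 9 matched atrial chamber markers, Nppa, Myl7, Myl4, Sln and Mybphl stood at 2 or more times the highest other library in Grhl2_cKO replicate 1, and Gja5, Kcna5, Nr2f1 and Nr2f2 were at 0.951, 1.14, 1.35 and 0.899 times it. Among the 6 tested, 2 met this rule, and of the 4 tested ventricular markers 0 did. Whether atrial and ventricular markers differed was not tested. Myl4, the atrial essential light chain, stood at 2.99, 1.40 and 1.81 CPM in the controls and at 19.7, 1.09 and 0.59 CPM in Grhl2_cKO. Sln, sarcolipin, an inhibitor of the calcium pump in atria, was at 2.10 CPM in Grhl2_cKO replicate 1, at 0.06 CPM in replicate 5 and at 0 in the other 4 libraries. Myl2, the ventricular regulatory light chain, and Irx4, a ventricular transcription factor, were at 0 in all 6 libraries, and Myl3, the ventricular essential light chain, was at 0.30 CPM in Grhl2_cKO replicate 1 and 0 elsewhere. Sln, Mybphl, Gja5, Kcna5, Nr2f1, Myl2, Irx4 and Myl3 were singled out after their values were seen.

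Summed over the lists, 9 matched atrial markers, of which Nppa and Myl7 are also among the 10 genes, reached 125.4 CPM in Grhl2_cKO replicate 1 and 57.4 to 66.3 CPM in the other libraries. The 7 ventricular markers were at 54.4 CPM there and at 43.7 to 53.2 CPM elsewhere. Nr2f2, which many mesenchymal cells use, gave most of the atrial sum outside that library, with 48.0 to 55.7 CPM. The edgeR fit called 0 of 6 tested atrial markers (0 at an unadjusted p under 0.05, 0 by DESeq2 and limma-voom) and 1 of 4 ventricular markers, Kcnip2, a potassium channel subunit. Kcnip2 was at 2.01 to 2.13 CPM in Control and 3.78 to 5.03 CPM in Grhl2_cKO (log2 fold change 1.05 ± 0.20 SE, n = 3 per group, edgeR adjusted p = 0.0172), and its adjusted p was 0.0759 without Control replicate 3, 0.058 without Control replicate 7, 0.0538 without Grhl2_cKO replicate 5 and 0.0758 without Grhl2_cKO replicate 10.

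The tested skeletal muscle markers did not accompany the heart genes as a group. Myod1 and Myog, the factors that set the skeletal muscle fate, were at 0 in all 6 libraries, and Mylpf, a light chain of fast fibres, was at 4.21 CPM in Grhl2_cKO replicate 1 and 4.56 to 5.30 CPM elsewhere. Of 6 tested skeletal muscle genes, edgeR called 0 (0 at an unadjusted p under 0.05), DESeq2 and limma-voom also 0, and 0 stood at 2 times the other libraries. Myl1, a light chain shared by fast skeletal and embryonic heart muscle and singled out after its values were seen, was at 2.04 CPM against at most 0.07 CPM. Of the other untested genes, Myh8, Acta1 and Pax7 met the rule there with 11, 10 and 1 counts, against at most 1, 3 and 0 elsewhere. Myh1, Myf5 and Myf6 met it in other libraries with 2, 1 and 2 counts. The list summed to 17.2 CPM in Grhl2_cKO replicate 1 and to 11.5 to 14.4 CPM in the others.

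Smooth muscle genes had their highest sum in Control replicate 1, at 447.8 CPM against 353.1 CPM in Grhl2_cKO replicate 1, and of 11 tested, edgeR called 0 (0 at an unadjusted p under 0.05), as did DESeq2 and limma-voom. Of the 8 tested heavy chains of the myosin family, Myh7 alone was called. Myh9 and Myh10, the nonmuscle myosins, were at 963.0 to 1267.3 and 426.1 to 485.1 CPM over the 6 libraries, and Myh9 was highest in Control replicate 1. Flna, a filamin of most cells from the list of Ky partners and filament maintenance, had a log2 fold change of 0.18 ± 0.08 (SE, n = 3 per group, edgeR adjusted p = 0.326).

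Other cell types also differed between libraries. Fibroblast markers (Col1a1, Pdgfra and Tcf21) summed to 525.6 CPM in Grhl2_cKO replicate 1 and to 254.3 to 418.0 CPM in the others. Col1a1 gave 485.3 CPM of that sum, while Pdgfra and Tcf21, at 27.1 and 13.2 CPM, lay within the range of the other libraries. Of 11 tested fibroblast genes, 2 stood at 2 or more times the highest other library: Dcn and Lum, matrix proteins at 59.2 and 13.6 CPM against at most 24.9 and 5.53 CPM. They were singled out after their values were seen. The median log2 ratio of this list to the other 5 libraries was 0.12 in Grhl2_cKO replicate 1 and 0.24 in Control replicate 1. Mesothelium markers (Wt1, Upk3b and Msln) summed to 37.1 to 74.2 CPM in Control and 17.0 to 54.5 CPM in Grhl2_cKO. The highest sum was in Control replicate 1, where Msln reached 45.25 CPM. Wt1 was at 4.99 CPM in Grhl2_cKO replicate 1 and 0.84 to 2.02 CPM elsewhere, and Upk3b at 32.08 and 8.87 to 26.95 CPM. The mesothelium and epicardium list (8 tested genes) had a median log2 ratio of 0.60 in Grhl2_cKO replicate 1 and 0.49 in Control replicate 1. Endothelial markers summed to 82.3 to 130.4 CPM in Control and 107.1 to 117.6 CPM in Grhl2_cKO, and 2 matched blood and immune markers to 5.93 to 19.4 and 6.93 to 19.3 CPM. The 6 cardiomyocyte markers, all among the 10 genes, summed to 20.2 to 39.7 CPM in Control and to 201.0, 25.0 and 18.5 CPM in Grhl2_cKO. The part of other cells in the heart gene levels was not tested.

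**Figure D5:**
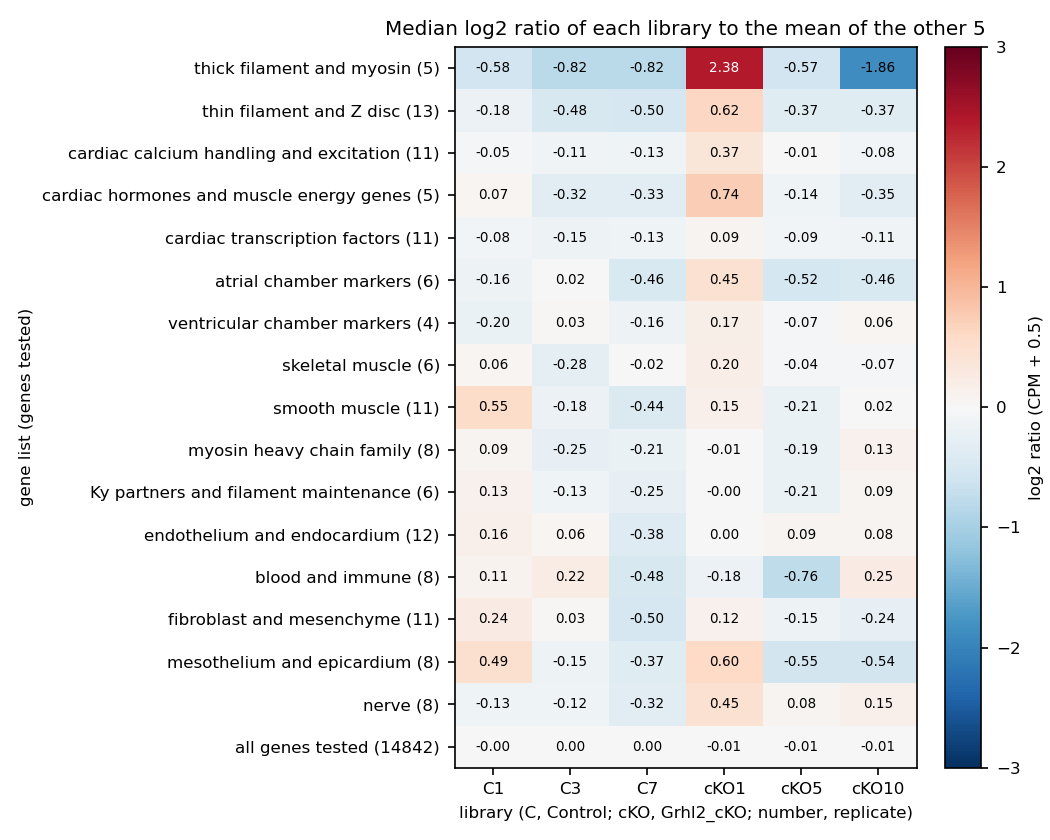
Median log2 ratio of each library to the mean of the other 5, on CPM + 0.5, for the tested genes of each list (number in brackets) and for all genes tested. The thick filament list has the highest value of the heart lists, 2.38 in Grhl2_cKO replicate 1, where the other 4 lie at 0.62, 0.37, 0.74 and 0.09. Lists of other cell types lie between -0.76 and 0.60 over all libraries.

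Nerve genes were the list with most calls, 2 of 8 tested. Elavl3, a neuronal RNA-binding protein, was at 0.58 to 1.19 CPM in Control and 2.28 to 3.08 CPM in Grhl2_cKO (log2 fold change 1.62 ± 0.30 SE, n = 3 per group, edgeR adjusted p = 0.017), and Tubb3, the neuronal tubulin, at 0.19 to 0.37 and 0.89 to 3.66 CPM (2.79 ± 0.61 SE, edgeR adjusted p = 0.0337). Unlike Myh6 or Nppa, Elavl3 was highest in Grhl2_cKO replicate 10, whereas Tubb3 was highest in replicate 1. The edgeR adjusted p of Elavl3 was 0.0802 without Control replicate 3, 0.0628 without Control replicate 7, 0.0505 without Grhl2_cKO replicate 5 and 0.0743 without Grhl2_cKO replicate 10. That of Tubb3 was 0.124 and 0.107 without the same controls, 0.056 without Grhl2_cKO replicate 1 and 0.0625 without replicate 5, and limma-voom gave an adjusted p of 0.0663.

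The genes next to Myh7 and Ky were set beside them. On chromosome 14, Ngdn, on the side of Myh7 with higher coordinates and 20828 bases away, was at 40.6 to 42.0 CPM in Control and 38.1 to 43.7 CPM in Grhl2_cKO (log2 fold change -0.04 ± 0.08 SE, n = 3 per group, edgeR adjusted p = 0.944), and Myh6, 2667 bases away on the other side, followed the single library. Beside Ky on chromosome 9, Cep63, 40331 bases away, was at 48.9 to 51.4 CPM in Control and 44.6 to 50.2 CPM in Grhl2_cKO (-0.09 ± 0.07 SE, edgeR adjusted p = 0.748). Ephb1, 151062 bases away on the other side, had at most 0.90 CPM. Of these 4 neighbours, none had every Grhl2_cKO library above every control.

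Likeness to Myh7 and Ky was measured as Pearson's r of log2 CPM over the 6 libraries, as a description, among 12368 genes. The libraries fall into 2 genotypes, so a high r mostly reads a common difference between these, and 93 genes had an r over 0.95 with Myh7 and 65 with Ky. The 5 genes most like Myh7 were Lipa (r = 0.997), Rap1gds1 (0.996), Asph (0.995), Ttc28 (0.993) and Cdh2 (0.990), and those most like Ky were Arrb2 (0.990), Thsd4 (0.989), Sdc3 (0.989), Chrnb1 (0.987) and Dio3os (0.984). Most differed by less than Ky did: Asph stood at 154.8 to 157.3 CPM in Control and 163.4 to 164.3 CPM in Grhl2_cKO. Cdh2, the cadherin of nerve and heart muscle cells, was at 17.4 to 19.4 and 44.8 to 49.0 CPM (log2 fold change 1.31 ± 0.08 SE, n = 3 per group, edgeR adjusted p = 2.8e-05), and Chrnb1, a subunit of the muscle acetylcholine receptor, at 44.2 to 44.9 and 54.0 to 55.6 CPM.

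For Nppa the nearest genes by this measure were Reck (r = 0.971), Dedd (0.966) and Drp2 (0.963), and 13 genes had an r over 0.95. These values rest on Grhl2_cKO replicate 1, since Nppa was near 0 elsewhere. Reck, an inhibitor of matrix proteases, was at 38.6 CPM in that library and 29.7 to 32.7 CPM in the others.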

How the data were processed

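Per the labels' protocols, RNA from sorted EpCAM-positive lung cells was made into stranded libraries of polyadenylated RNA, and all 6 ran in 1 lane of 1 flow cell. The table the authors deposited gives raw counts and a length for each gene. Per the submitters' processing notes, bcl2fastq 2.17.1.14, featureCounts, edgeR 3.16.5, limma 3.30.12 and the mm10 build were used. For the aligner, the strand of counting and multiply mapped reads, settings were not given in the sources used here. Counts of near-identical or overlapping genes can be shifted by them.

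The 27179 rows are Entrez identifiers, 6567 at 0 in each library, with 0 columns unused. A RefSeq table (GRCm38.p6) matched 25275 (92.99%), with 99.19% of the counts. It gave symbols, coordinates and sequences. On the 3 pairs of each group, replicates differed by more than counting noise (chi-square per degree of freedom 8.23 to 13.8).

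Counts were fitted with edgeR 4.0.16 in R 4.3.3 (TMM factors 0.981 to 1.009, filterByExpr with minimum count 10 and minimum total 15, 14842 genes tested and 12337 left out, glmQLFit and glmQLFTest, Benjamini-Hochberg threshold 0.05, common coefficient of variation 9.52%). All 6 samples entered, grouped by the genotype in the labels. CPM, ratios and sums were computed here. The 95% interval of a ratio is exact, from the counts of 2 libraries. The fit was tested on simulated data.

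The 10 genes, the 16 gene lists, the markers and the tests were chosen with earlier results of these data known. The genes named are the 10, Grhl2 and Epcam, up to 3 called genes and the 2 of highest level per list, neighbours and overlapping genes, the 15 with the largest ratio of Grhl2_cKO replicate 1 to the other libraries, and the 5 most like Myh7, Ky or Nppa. Some that the rule covers are not reported here. Nr2f3 and Hbb-bt had no matched row. The 14 alternatives were scaling by total count, RLE or upper quartile, a filter of 1 CPM in 3 libraries or none, sex as a covariate, DESeq2 1.42.0, limma-voom (limma 3.58.1) and leaving out each library.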

Additional observations from a re-analysis of the deposited data

How the results depend on the processing

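Myh7 and Ky were called higher in Grhl2_cKO under all 14 alternative settings, with log2 fold changes of 0.45 to 0.51 and 1.05 to 1.25. Directions turned for 5 genes without Grhl2_cKO replicate 1: Myh6 to -0.27, Tnnt2 to -0.20, Actc1 to -0.41, Myl7 to -0.76 and Tnni3 to -0.68. Leaving out any other library gave at most 1.84, 2.50, 2.27, 1.97 and 0.45 for the same genes. Tnni3 also turned with sex as a covariate (-0.01) and by limma-voom (-0.09). The same settings lowered the log2 fold change of Myh6 to 0.85 and 0.74, of Tnnt2 to 1.29 and 1.14, of Actc1 to 0.89 and 0.90 and of Myl7 to 0.76 and 0.55, and the cause was not tested. DESeq2 called 1 gene of the 5 heart lists, where edgeR called 0.

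Genes called higher numbered 180, and 77 to 221 when a library was left out: 77 without Control replicate 3, 89 without Control replicate 7, 84 without Grhl2_cKO replicate 5 and 79 without Grhl2_cKO replicate 10. Genes called lower numbered 353, and 165 to 336: 216 without Control replicate 3, 165 without Grhl2_cKO replicate 5 and 167 without Grhl2_cKO replicate 10. Fewer samples entered these fits.

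The summed level of 8 genes in Grhl2_cKO replicate 1 was 4.21 times the next library, 4.52 times by a geometric mean, and 4.21 to 5.87 times with another library left out, the highest without Control replicate 1. With 1.5 times in place of 2 times, the controls (replicates 1, 3 and 7) had 136, 11 and 17 genes above all other libraries, and Grhl2_cKO (replicates 1, 5 and 10) had 94, 12 and 17. By that setting Control replicate 1 had more such genes than Grhl2_cKO replicate 1. With a mean count of 20 or more, the numbers were 8, 0 and 0 for the controls and 31, 0 and 1 for Grhl2_cKO. Depth limits Nppa and Csrp3 outside Grhl2_cKO replicate 1, where a library held 0 to 7 counts of either. No paired analysis was possible because the groups share only 1 replicate number.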
